A study of Homo sapiens with 8 samples.

Results

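The mRNAs described here are 8 reported targets of miR-21: PDCD4, TIMP3, RECK, SPRY1, TIAM1, TPM1, RHOB and MARCKS. They were named from earlier work on miR-21, but with earlier results of these data known. Each array probe was assigned to them through the RefSeq accession that the array gives it. Of the 8 genes, 6 were matched in this way, by 10 probes, among 20249 genes with a symbol on the array. RHOB and MARCKS had no matched probe and were not analysed here. PDCD4 and TIMP3 are also on a list of predicted targets that the study drew from genes already raised on these arrays. Their direction here is therefore not independent evidence. The other 4 are not on that list. By qPCR and Western blot the study also reported PDCD4 and TIMP3 as raised after KHSRP silencing.

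KYSE850 is an established human cell line of esophageal squamous cell carcinoma (ESCC). It was given either a control siRNA or one against KHSRP, a small duplex RNA that directs the cleavage of KHSRP mRNA. Total RNA of 4 samples per group was hybridised to 8 one-colour arrays. All samples are of this 1 cell line with no other agent named, and the labels leave unsaid which siRNA sequence each sample received and whether the 4 samples of a group were separate cultures. The p-values therefore measure the spread between these samples, which may be technical. The question addressed was whether mRNAs targeted by miR-21 differ in level once KHSRP is silenced.

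A microRNA guides an Argonaute protein to mRNAs whose 3′ untranslated region pairs with its seed, and the mRNAs it binds are translated less and degraded faster. miR-21 is raised in many carcinomas, ESCC among them, and its reported targets include inhibitors of translation, of matrix proteases and of growth factor signalling. KHSRP is an RNA-binding protein that takes part in splicing, in the decay of mRNAs with AU-rich elements and in the maturation of some microRNA precursors, by binding their terminal loop.

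The sequences below are shown because the 8 genes were named as targets of this microRNA. Sites for its seed in their mRNAs were not examined here. They are from RefSeq (GRCh38.p14), with the seed (bases 2 to 8) in capitals. The first is at chr17:59841273-59841294 and the second at chr7:74191213-74191234, both on the plus strand.
hsa-miR-21-5p: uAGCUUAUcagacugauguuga
hsa-miR-590-5p: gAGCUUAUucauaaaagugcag
These are the only 2 of 2545 human mature entries in the RefSeq table with the seed AGCUUAU, so an mRNA site for the seed of miR-21 is also one for the seed of miR-590-5p. The precursor of miR-21 follows, with the mature strand (bases 8 to 29 of 72) in capitals. The lower-case bases just after the mature strand hold the terminal loop. According to the study this loop lacks the typical G-rich elements. Whether KHSRP acts on miR-21 by a known mechanism was left unclear there.
MIR21 hairpin: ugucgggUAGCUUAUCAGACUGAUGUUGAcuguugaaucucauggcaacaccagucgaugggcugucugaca
The arrays measured mRNA, and no probe matched MIR21 itself. On separate microRNA arrays and by qPCR, the study reported mature miR-21 as lowered after KHSRP silencing. By qPCR it reported the precursors of miR-21 as raised. MIR21 lies within VMP1, which encodes a membrane protein of autophagy. The VMP1 probe A_33_P3407925 read 3.39, 3.52, 3.16 and 3.32 with control siRNA and 3.51, 3.38, 3.21 and 3.11 with KHSRP siRNA, where a level is the log2 signal relative to the 75th percentile of the array. The groups overlapped and differed by -0.047 on the log2 scale (SE 0.13, adjusted p = 0.915). The sign changed when control siRNA replicate 2 (0.012) or replicate 4 of the KHSRP siRNA arrays (0.018) was left out.

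Each array detected between 45.1% and 49.4% of 42405 probes well above background, with 75th percentile signals of 87.7 to 117 and no saturated spot. Of 18761 tested probes, 1037 (5.53%) were called, which means an adjusted p under 0.05 in limma: 358 (1.91%) were higher and 679 (3.62%) lower with KHSRP siRNA. With each array's median in place of the 75th percentile, 98 were higher and 472 lower. Replicates 1 and 2 of both groups shared 1 slide and replicates 3 and 4 another. All 6 squamous epithelial markers were measured, whereas 1 of 6 fibroblast markers (COL1A1), 0 of 3 endothelial markers and 1 of 3 leukocyte markers (CD68) were bright enough to test. None of these was called without a block. The arrays also differed within each group. KRT5, the basal squamous keratin, lay between 5.84 and 5.98 on control siRNA replicates 1 and 3 and KHSRP siRNA replicates 1 and 4, but between 2.92 and 4.46 on the other 4 arrays, and KRT14, KRT17, TP63 and DSG3 were split in the same way. This split falls evenly on both groups, and its part in the results was not tested. In the deposited series matrix, the columns of KHSRP siRNA replicates 3 and 4 held the scanner values of each other. Numbered as in that matrix, the arrays of a pair deviated together. Values with the matrix number as a block are therefore given where they change a call of a target, a marker or a gene named from the related lists. For the rest of those lists only counts are given. The block was chosen from these same values, so its p-values can be too small. Calls made only with it are descriptive. With this block 5646 probes (30.1%) were called, 2780 of them (14.8%) higher. Among the markers it called DSG3, a desmosomal cadherin, which was lower in 4 of 4 matrix pairs (log2 fold change -0.74, adjusted p = 0.00431), and CDH1 (0.55, adjusted p = 0.0115) and CD68 (0.29, adjusted p = 0.0184), which were higher in 4 of 4. The part of these differences in the target results was not tested.

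KHSRP mRNA was lowered in every sample labelled as silenced. At A_23_P16157 its level was 6.03, 5.81, 6.39 and 6.08 with control siRNA and 2.51, 2.58, 2.88 and 2.85 with KHSRP siRNA. The change of -3.37 on the log2 scale (SE 0.16, adjusted p = 5.97e-05) left 9.66% of the control level (exact permutation p = 0.0286, two-sided, the smallest that 4 against 4 arrays allow). A dimmer probe, A_24_P134235, was detected on 4 of 4 control siRNA arrays, was not well above background on any of the 4 KHSRP siRNA arrays, and was at least 5.83-fold lower. It entered the test through the control arrays alone (adjusted p = 0.0147) and was not called without control siRNA replicate 1 (adjusted p = 0.0549).

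Of the 6 measured targets, PDCD4 rose after KHSRP silencing and none fell. It was the 1 gene called of 6, beside 5.53% of all tested probes, and 2 of 6 had an unadjusted p under 0.05, beside 19.6%. The median log2 fold change of the 6 was 0.38, with 5 of 6 above 0. Over all tested probes the median was 0.012, with 51.7% above 0. PDCD4 and TIMP3 count in the values of the 6, although the study listed both from genes raised on these same arrays. For the other targets the log2 fold changes were 0.50 (SPRY1), 0.26 (TIAM1), 0.083 (RECK) and -0.062 (TPM1). None of those was called without a block. All 9 tested probes of the 6 genes were well above background on all 8 arrays, so that none entered the test through 1 group alone. With the matrix number as a block, 4 of 6 were called and all 4 were higher (PDCD4, TIMP3, SPRY1 and TIAM1). Of all tested probes, 30.1% were called with it and 14.8% were called as higher. As the block was chosen from these same values, its p-values can be too small. The markers DSG3, CDH1 and CD68 were also called with this block. PDCD4, TIMP3, SPRY1 and TIAM1 were higher in 4 of 4 matrix pairs, as were 25.7% of all tested probes. RECK and TPM1 were called in neither fit. With slide as a block 1 of 6 was called, beside 6.23% of all tested probes, and with the scanner file number as a block 0 of 6, beside 0.832%. In bulk RNA, fewer cells that express a gene and less RNA per cell cannot be told apart.

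**Figure D1:**
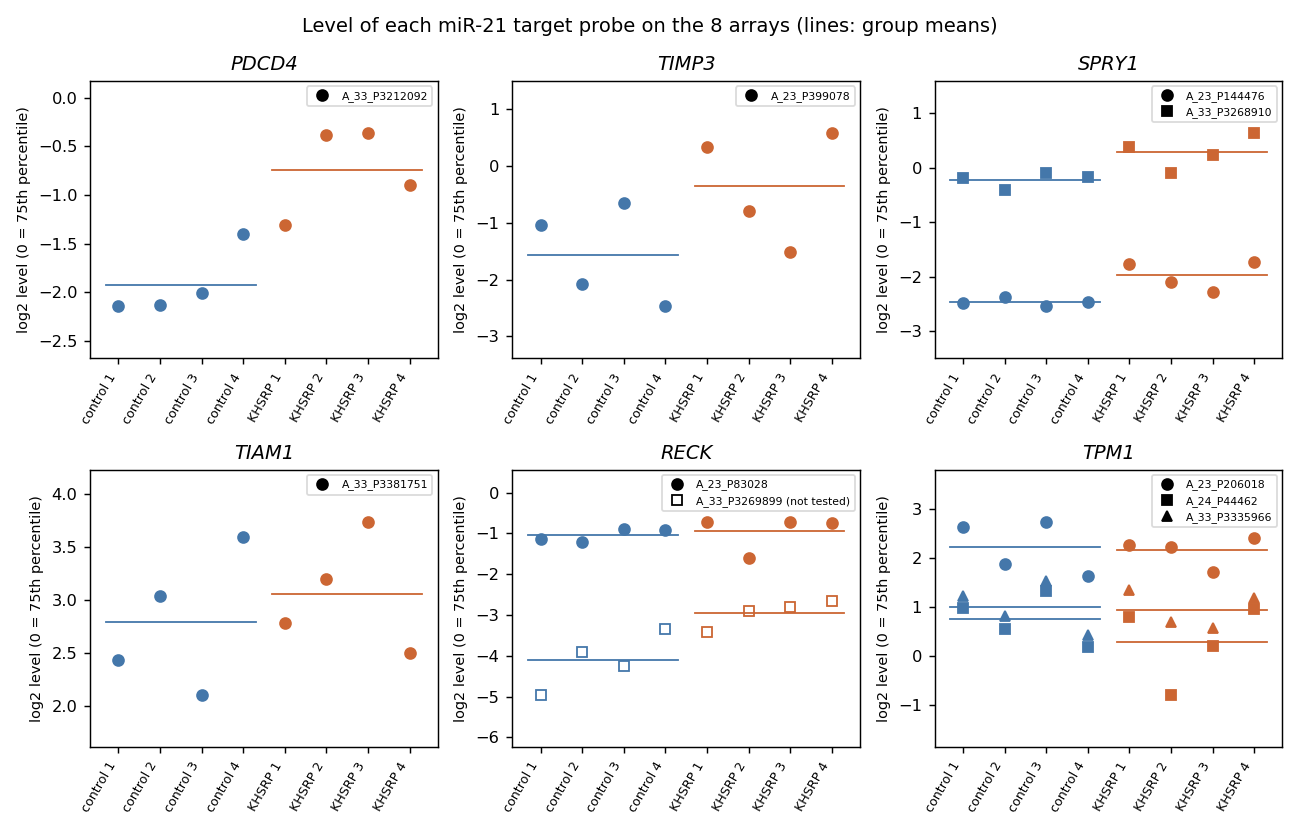
Log2 level of each matched miR-21 target probe on the 4 control siRNA arrays (blue) and the 4 KHSRP siRNA arrays (orange), relative to the 75th percentile of the array. Lines are group means, and open symbols mark the RECK probe that was not well above background on any array. The PDCD4 groups do not overlap (-2.14 to -1.40 against -1.31 to -0.36), whereas the TIMP3, TIAM1, RECK and TPM1 groups do.

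PDCD4 is a tumour suppressor that binds the helicase eIF4A and holds back the translation of structured mRNAs. Its single probe, A_33_P3212092 (NM_145341, chromosome 10), read -2.14, -2.13, -2.0 and -1.40 with control siRNA and -1.31, -0.39, -0.36 and -0.90 with KHSRP siRNA. Every KHSRP siRNA array lay above every control array, with the narrowest gap between control siRNA replicate 4 and KHSRP siRNA replicate 1. The group means were -1.92 ± 0.35 and -0.74 ± 0.45 (SD, n = 4 each), a log2 difference of 1.18 (SE 0.26, 95% interval 0.60 to 1.77, adjusted p = 0.0342) or 2.27-fold. On slide 1 alone it was 1.29 and on slide 2 alone 1.07.

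The call for PDCD4 stood near the threshold. With the matrix number as a block the adjusted p was 0.00556, and with the methods' t-test 0.0773. Leaving out control siRNA replicate 4 or KHSRP siRNA replicate 1 kept the call (adjusted p = 0.0284 and 0.0288). It was lost without replicates 1, 2 or 3 of the control siRNA arrays (0.106, 0.102 and 0.0814) and without KHSRP siRNA replicates 2, 3 or 4 (0.0933, 0.077 and 0.0652), although the log2 fold change stayed between 1.06 and 1.37 in all 8 cases. Under normexp background correction the log2 fold change was 0.54 (adjusted p = 0.0617).

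TIMP3 and RECK encode inhibitors of matrix metalloproteinases, the former secreted and bound to the extracellular matrix and the latter anchored in the membrane. For TIMP3 (A_23_P399078, NM_000362, chromosome 22) the levels were -1.04, -2.09, -0.66 and -2.47 with control siRNA and 0.33, -0.80, -1.51 and 0.57 with KHSRP siRNA. The groups overlapped, since KHSRP siRNA replicate 3 lay below control siRNA replicates 1 and 3, and KHSRP siRNA replicate 2 below control siRNA replicate 3. The means were -1.56 ± 0.85 and -0.35 ± 0.98 (SD, n = 4 each), and the log2 fold change of 1.21 was as large as that of PDCD4 with a wider error (SE 0.55, 95% interval -0.049 to 2.47, adjusted p = 0.275). Under normexp background correction the log2 fold change of TIMP3 was 0.63 (adjusted p = 0.285). Its spots were also dim beside the offset, with processed signals of 15.1 to 141.

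The arrays of each group differed widely in TIMP3. It was above its group mean on control siRNA replicates 1 and 3 and KHSRP siRNA replicates 1 and 4, the arrays on which KRT5 was high, and below it on the other 4. Between arrays with the same matrix number, TIMP3 was higher with KHSRP siRNA by 1.37, 1.28, 1.23 and 0.96. With this number as a block the log2 fold change was called (SE 0.087, 95% interval 0.995 to 1.43, adjusted p = 0.00152). It was 1.33 on slide 1 and 1.1 on slide 2.

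**Figure D2:**
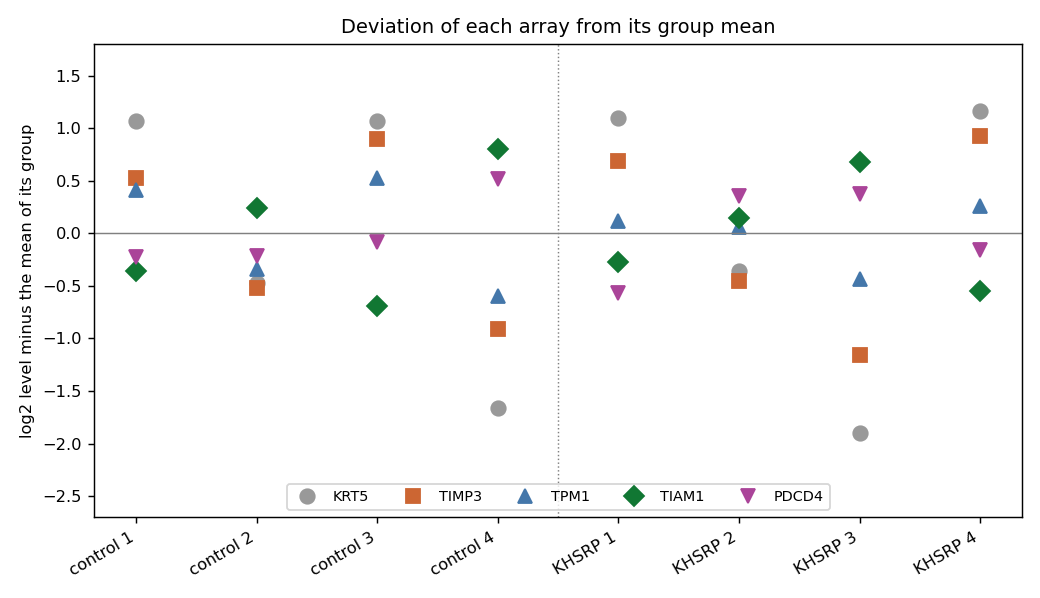
Log2 level minus the mean of its group (y axis) for KRT5, TIMP3, TPM1, TIAM1 and PDCD4 on each of the 8 arrays (x axis), with the dotted line between control siRNA and KHSRP siRNA. On control 1 and 3 and KHSRP 1 and 4, KRT5, TIMP3 and TPM1 lie above 0 and TIAM1 below it.

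RECK differed little between the groups. Its probe A_23_P83028 (NM_021111, chromosome 9) read -1.13, -1.21, -0.88 and -0.91 with control siRNA and -0.73, -1.61, -0.71 and -0.75 with KHSRP siRNA. On 3 of 4 KHSRP siRNA arrays it was above every control, and on KHSRP siRNA replicate 2 it was below every control. On the log2 scale the difference was 0.083 (SE 0.22, 95% interval -0.41 to 0.58, adjusted p = 0.905), and 0.30 (adjusted p = 0.288) without KHSRP siRNA replicate 2. The interval does not include a change of the size seen for PDCD4. A second RECK probe, A_33_P3269899, was not tested, as 0 of 8 arrays showed it well above background.

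SPRY1 and TIAM1 act in signalling. SPRY1 encodes Sprouty 1, a feedback inhibitor of receptor tyrosine kinase signalling to ERK, and was measured by 2 probes. A_33_P3268910 (NM_001258038, chromosome 4) read -0.19, -0.42, -0.10 and -0.18 with control siRNA and 0.37, -0.10, 0.23 and 0.63 with KHSRP siRNA. The groups met at 1 point only, where control siRNA replicate 3 and KHSRP siRNA replicate 2 were level. The means were -0.22 ± 0.14 and 0.28 ± 0.31 (SD, n = 4 each), and the log2 fold change was 0.50 (SE 0.17, 95% interval 0.12 to 0.88, adjusted p = 0.130).

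The second SPRY1 probe gave the same size of difference. A_23_P144476 (NM_199327) read -2.48, -2.36, -2.54 and -2.46 with control siRNA and -1.77, -2.10, -2.28 and -1.73 with KHSRP siRNA. Its groups did not overlap and differed by 0.49 (log2, SE 0.15, adjusted p = 0.0953). With the matrix number as a block both SPRY1 probes were called (adjusted p = 0.0118 and 0.0382). Together with PDCD4, this made 2 of 9 tested target probes with groups that did not overlap, both higher, as were 6.09% of all tested probes (14.8% in either direction).

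TIAM1 encodes an exchange factor that activates the GTPase RAC1. At A_33_P3381751 (NM_003253, chromosome 21) it read 2.44, 3.04, 2.11 and 3.60 with control siRNA and 2.78, 3.21, 3.74 and 2.51 with KHSRP siRNA. The groups overlapped widely, and the log2 fold change was 0.26 (SE 0.37, 95% interval -0.58 to 1.1, adjusted p = 0.795). Its deviations ran opposite to those of TIMP3 on each of the 8 arrays. By matrix number the differences were small but of 1 sign, at 0.34, 0.16, 0.40 and 0.14, and with the block TIAM1 was called (SE 0.075, adjusted p = 0.0483).

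**Figure D3:**
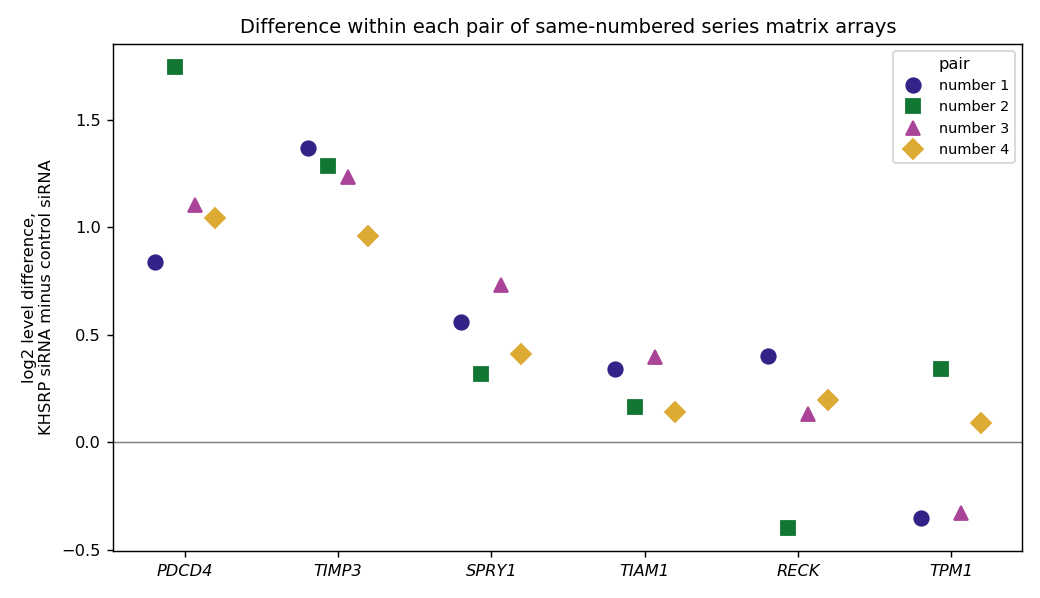
Difference in log2 level, KHSRP siRNA minus control siRNA, between the 2 arrays with the same series matrix number (4 symbols), for the probe that stands for each gene. PDCD4 (0.84 to 1.74), TIMP3 (0.96 to 1.37), SPRY1 (0.32 to 0.73) and TIAM1 (0.14 to 0.40) are above 0 in 4 of 4 pairs, while RECK and TPM1 lie on both sides of 0.

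TPM1 encodes tropomyosin 1, which stabilises actin filaments, and its transcripts are spliced in many ways. It was measured by 3 probes, each assigned to another RefSeq transcript, and no probe was called in any setting. A_23_P206018 (NM_001018004, chromosome 15) read 2.62, 1.87, 2.74 and 1.62 with control siRNA and 2.27, 2.21, 1.71 and 2.41 with KHSRP siRNA. All KHSRP siRNA arrays lay within the range of the controls. On the log2 scale the difference was -0.062 (SE 0.28, 95% interval -0.70 to 0.57, adjusted p = 0.947), and it was above 0 when control siRNA replicate 1 (0.074) or 3 (0.11) or replicate 3 of the KHSRP siRNA arrays (0.084) was left out.

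The other TPM1 probes also overlapped between the groups. A_33_P3335966 (NM_001018005) differed by -0.054 on the log2 scale (SE 0.27, adjusted p = 0.953). A_24_P44462 (NM_000366) had one of -0.47 (SE 0.40, adjusted p = 0.620), which rested on KHSRP siRNA replicate 2. There its duplicate spots had signals of 166 and 24.1, a gap of 2.79 on the log2 scale beside a median of 0.18 over the 8 arrays, and without that array the log2 fold change was -0.10.

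**Figure D4:**
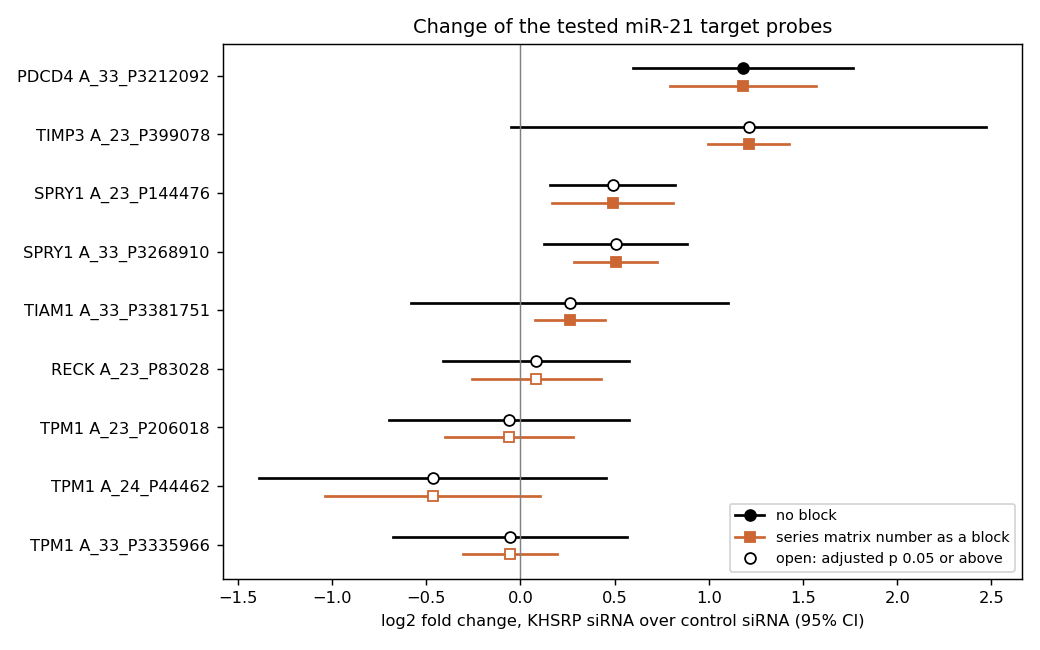
Log2 fold change of the 9 tested target probes, KHSRP siRNA over control siRNA, with 95% intervals from limma without a block (black) and with the series matrix number as a block (orange). Filled symbols have an adjusted p under 0.05: PDCD4 without the block, and PDCD4, TIMP3, both SPRY1 probes and TIAM1 with it.

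For each of the 6 genes, the 2 genes whose profile over the 8 arrays was most alike were found among 12125 tested genes, by the root mean square difference of log2 levels after each was centred on its own mean. They were C1RL-AS1 and PTGR2 for PDCD4, at 0.11 and 0.14. The siRNA difference is part of a profile, so genes found in this way share most of the target's fold change by selection. PTGR2, a prostaglandin reductase, was thus also called as higher, by 1.15 on the log2 scale (adjusted p = 0.00933), as was C1RL-AS1 at 1.1 (adjusted p = 0.0446). These calls are no separate evidence. TIMP3 was nearest to SUSD4 and LHX1 at 0.16 and 0.20, SPRY1 to WDR24 and HERPUD2 at 0.10 each, TIAM1 to THRA and HES6 at 0.070 and 0.073, RECK to EPS15 and CDC45 at 0.083 and 0.11, and TPM1 to QSOX1 and MIR503HG at 0.082 and 0.095. None of the last 10 was called, which the selection also favours.

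Among other genes reported as miR-21 targets, none was called as higher without a block. Of 24 such genes 22 were tested, and 1 (4.55%) was called, in the lower direction. This was PELI1, a ubiquitin ligase of Toll-like receptor signalling, which read 0.033, -0.32, 0.24 and 0.032 with control siRNA and -0.88, -1.79, -1.75 and -0.78 with KHSRP siRNA (log2 fold change -1.30, SE 0.26, adjusted p = 0.0271). The call held without KHSRP siRNA replicate 1 or 4 and was lost without any other single array (adjusted p at most 0.0827). Under normexp background correction the log2 fold change of PELI1 was -0.61 (adjusted p = 0.018). The median log2 fold change of the 22 was 0.062, and 12 of 22 were above 0. The largest rise in value was that of SERPINB5, the serpin known as maspin, at 0.53 (SE 0.31, adjusted p = 0.412), which was called with the matrix number as a block (adjusted p = 0.00616). That block called 6 of 22, 4 of them higher, beside 30.1% of all tested probes.

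Paralogs of the targets included the largest fall among all the related genes. TIMP2, a sister inhibitor of TIMP3, fell from 4.52, 5.06, 4.35 and 5.0 with control siRNA to 2.46, 2.83, 3.20 and 2.22 with KHSRP siRNA. This change of -2.05 (log2, SE 0.25, adjusted p = 0.00353), or 4.15-fold, stayed called without any single array. TPM3, a tropomyosin like TPM1, rose at A_32_P29784 by 0.52 on the log2 scale (SE 0.097, adjusted p = 0.0181). This was the only called probe among 4 tested TPM3 probes, which lay between 0.50 and 0.57, and its call was lost when control siRNA replicate 1 or 2, or replicate 1, 2 or 4 of the KHSRP siRNA arrays, was left out (adjusted p at most 0.0642). Of 14 paralogs tested, 2 (14.3%) were called, 1 in each direction, with a median log2 fold change of 0.060. By the probe that stands for each gene, TIMP4 had the largest rise in value, at 0.53 (SE 0.69, adjusted p = 0.775), and was called with the matrix number as a block (adjusted p = 0.0127). That block called 8 of 14, 4 of them higher, beside 30.1% of all tested probes.

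Among 20 binding partners and substrates of the target proteins, 3 (15.0%) were called and all 3 were lower, with a median log2 fold change of -0.072 over the list. EIF4A2, a helicase that PDCD4 binds, fell from 4.80 ± 0.079 to 4.21 ± 0.094 (SD, n = 4 each), a log2 difference of -0.58 (SE 0.10, adjusted p = 0.0157), and was not called without control siRNA replicate 2 (adjusted p = 0.0578). RPS6KB1, the S6 kinase that marks PDCD4 for degradation, fell at both of its probes, by log2 fold changes of -1.41 (A_24_P497226, SE 0.31, adjusted p = 0.0355) and -0.80. Both were called. The call of the first was kept when replicate 3 of either group was left out and was lost without any other single array (adjusted p at most 0.105) and with slide as a block (adjusted p = 0.0539). Its log2 fold change was -0.91 under normexp background correction (adjusted p = 0.040). MMP9, a gelatinase that TIMP proteins and RECK inhibit, was detected above background on 4 of 4 control siRNA and 3 of 4 KHSRP siRNA arrays, so that it entered the test through the control arrays alone. It read -1.42 ± 0.29 and -2.58 ± 0.22 (SD, n = 4 each), a log2 difference of -1.16 (SE 0.18, adjusted p = 0.00895) that was -0.29 and not called under normexp background correction (adjusted p = 0.0948). PRKCD had the largest rise in value, at 0.34 (SE 0.12, adjusted p = 0.170), and was called with the matrix number as a block (adjusted p = 0.0188). That block called 5 of 20, 1 of them higher, beside 30.1% of all tested probes.

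**Figure D5:**
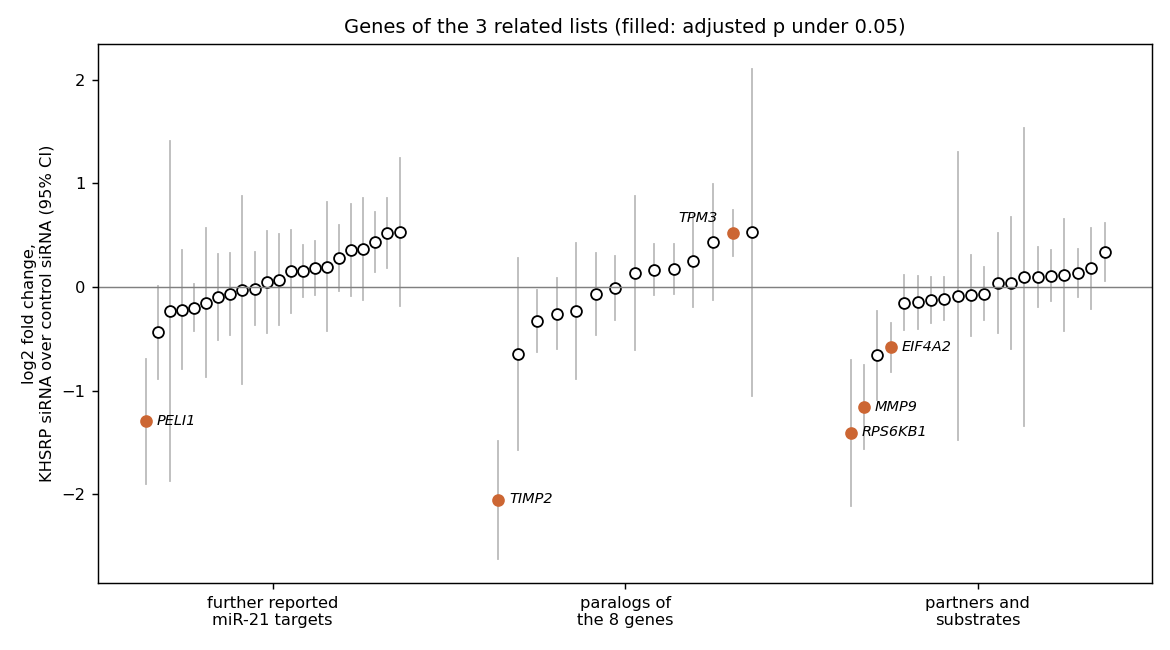
Log2 fold change, KHSRP siRNA over control siRNA, with its 95% interval, for each tested gene of 3 related lists, sorted within a list. Filled symbols are the 6 genes called of 55 tested: PELI1, TIMP2, EIF4A2, RPS6KB1 and MMP9 lower, and TPM3 higher. MMP9 entered the test through the control arrays alone.

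SPRY2 stands in the first and second of these lists. Over the 3 lists together 6 of 55 tested genes (10.9%) were called, 1 higher and 5 lower, beside 5.53% of all tested probes, and with the matrix number as a block 19 of 55 were called, 9 of them higher, beside 30.1% of all tested probes.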

How the data were processed

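The members and the lists were chosen with earlier results of these data known. The authors scanned 8 one-colour Agilent arrays and extracted spots with Feature Extraction (11.5.1.1 per the file headers, 12.6 per the submitters' processing notes). The deposited scanner values are linear fluorescence intensity, background-subtracted and detrended within each array but not scaled between arrays. The deposited series matrix holds log2 values of the same arrays, shifted to the 75th percentile and centred per probe, which the methods attribute to GeneSpring; it was used as an alternative.

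Samples were grouped by their labels and none was left out. Control and outlier spots were removed, spots were averaged per probe as log2 processed signal, and the 75th percentile of the array was subtracted. Tests covered probes with a share of 0.5 or more of their spots well above background on all 4 arrays of either group. Symbols were joined by RefSeq accession (GRCh38.p14) for 27241 of 42405 probes (64.2%), while another 1061 probes carried RefSeq accessions that matched no symbol. The tested probe with the highest mean level stood for a gene. The fit, checked on simulated data, used lmFit and eBayes of limma 3.58.1 (R 4.3.3) without a block, and two-sided p-values were adjusted by Benjamini-Hochberg over 18761 probes. Other steps used Python 3.11.15. The number of arrays limits the precision.

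Deviations from the group means correlated between same-numbered arrays at 0.52, 0.43, -0.67 and -0.64 by scanner file number and at 0.52, 0.43, 0.83 and 0.84 by series matrix number, a numbering known from earlier results. The matrix numbers were therefore taken to pair the arrays, a choice made from these same values. Arrays outside a pair but on the same side of the KRT5 split also deviated together. Control siRNA replicates 1 and 3 did so with KHSRP siRNA replicates 4 and 1 (0.41 and 0.37). Control siRNA replicates 2 and 4 did so with KHSRP siRNA replicates 3 and 2 (0.42 and 0.38). Nothing in the labels says what a number marks.

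Named were KHSRP, all targets, MIR21 and VMP1, in each list the genes called (the 4 largest where more were called) with the largest rise and fall, and the 2 most alike profiles per target. Alternatives covered scaling, normexp background correction with an offset of 50 on median spot brightness, the series matrix values, the filter, slide and replicate number as blocks, the variance model, the choice of probe per gene, the methods' t-test, and leaving out each array. The offset shrinks the log2 fold changes of dim probes.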

Additional observations from a re-analysis of the deposited data

Results flagged for a closer look

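Of 40 groups of 4 arrays examined, 1 held an array that stood apart by Dixon's criterion, which chance meets in about 1 in 20 groups. RECK (A_23_P83028) was low on KHSRP siRNA replicate 2, at -1.61, while the nearest of the other 3 arrays read -0.75. The gap was 0.961 of the range of the group, above the 95% limit for 4 samples. Without that array the log2 fold change of RECK was 0.30 in place of 0.083 (adjusted p = 0.288 and 0.905).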

How the results depend on the processing

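Over 25 alternatives, 132 of 150 values of the 6 targets kept their direction and side of the threshold, and the median of the targets ranged from 0.28 to 0.52. For all targets but PDCD4 this mostly meant staying uncalled. PDCD4 kept its call in 13 alternatives and lost it in 12. With 1 array left out, TPM1 ranged from -0.26 to 0.11 and reversed in 3 cases (control siRNA replicate 1, 0.074; control siRNA replicate 3, 0.11; KHSRP siRNA replicate 3, 0.084), and VMP1 from -0.12 to 0.018 and reversed in 2 (control siRNA replicate 2, 0.012; KHSRP siRNA replicate 4, 0.018). No target was called (0 of 6) under normexp correction, without the filter, by the methods' t-test, on either slide alone or with the replicate block by scanner file numbers. The block by series matrix numbers called 4. Leaving out 1 array called 0 to 1 target, 2 to 5 related genes and 490 to 765 probes. Related genes called were 2 without the filter, 0 on slide 1, 0 on slide 2, 0 with the block by scanner numbers and 19 with that by matrix numbers. All probes called were 570 (98 higher and 472 lower) with median scaling, 318 without the filter, where more probes were tested, 0 on slide 1, 0 on slide 2, 156 with the block by scanner numbers and 5646 with that by matrix numbers. On a single slide, 2 arrays were set against 2, and the log2 fold change of KHSRP was -3.37 on slide 1 (adjusted p = 0.189) and -3.37 on slide 2 (adjusted p = 0.777). With median scaling TPM3 (adjusted p = 0.168) and EIF4A2 (adjusted p = 0.0509) were no longer called. The cause of the other changes was not tested. The 2 numberings are the same for numbers 1 and 2. By scanner number, the arrays numbered 3 and 4 deviated in opposite directions (correlations of -0.67 and -0.64). Which numbering pairs the arrays is not given by the labels. The targets RHOB and MARCKS and the second RECK probe gave no value, the last because it was not well above background.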
